A study of Mus musculus with 3 samples.

Results

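The mitochondrial ribosomal proteins analysed here are the 78 genes whose symbol in the count tables begins with Mrpl or Mrps followed by a digit, out of 41743 symbols. By name 49 belong to the large and 29 to the small subunit, the rule used the symbol and no measured value to pick single genes, and every member passed the filter on low counts and was tested. Mitochondria keep a ribosome of their own, which makes the few membrane proteins of the respiratory chain that mitochondrial DNA encodes. Its ribosomal RNAs are transcribed inside the organelle, whereas its proteins are encoded in the nucleus, translated in the cytosol or at the outer mitochondrial membrane, and imported. Many subunits descend from bacterial ribosomal proteins and others are found only in mitochondrial ribosomes.

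RNA was recovered by immunoprecipitation and sequenced (RIP-seq) from K7M2, a mouse osteosarcoma line. An anti-ezrin antibody gave 2 libraries and normal mouse IgG, the background of the method, gave 1. Both groups came from the same untreated cells, in which CRISPR/Cas9 had removed endogenous ezrin and a stably transfected cDNA supplied ezrin with the T567A substitution, so no library had wild-type ezrin and the contrast is one of antibodies. The study asked which RNAs this closed form of the membrane-to-actin linker binds, and the labels do not state whether the rescued cells were 1 clone or whether each ezrin library had a culture of its own.

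Total counts were 19676595 and 16196329 in ezrin replicates 1 and 2 and 10124580 in IgG. Ezr itself, which the transgene also encodes, stood at 349 and 350.5 CPM (counts scaled to library size by TMM) in the ezrin libraries and 155 CPM in IgG, and this level cannot check the knockout. Of 9 osteoblast markers, the matrix genes Col1a2, Sparc and Spp1 were higher in the ezrin libraries, Col1a1 was present but not called, and Runx2 and Alpl were lower. Sp7, Ibsp and Bglap had at most 1 count in any library. In CPM of the raw library totals, without TMM, summed markers of endothelial, epithelial, erythroid and antibody-producing cells came to less than 2 in every library. On the same scale the macrophage list summed to 983 and 902 in the ezrin libraries and 1167 in IgG, nearly all of it Csf1r, and the defining markers Adgre1 and Ptprc had 0 counts. Protein-coding genes held 97.0% and 97.5% of counts in the ezrin libraries and 74.1% in IgG, a gap that bears on every scaling below.

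Short stretches of mouse genome upstream of 4 members are shown first, because a message's start region is one thing that related members share or do not share. Mrps9 and Mrps24 had the highest and lowest log2 fold in the small subunit. Mrpl46 lies head to head with Mrps11, and Mrpl32 with the proteasome gene Psma2, so that in these pairs the stretch between the annotated starts serves a gene on each side. Sequences are from RefSeq on GRCm38.p6, read 5′ to 3′ on the strand of the first gene named. Capitals mark a match to GCGC and TGCGC with any 1 base between them, a motif of the factor NRF1, which is known to act on nuclear genes for mitochondrial proteins.
Mrps9, chr1:42851138-42851237, plus strand, ending 5 bases into the message: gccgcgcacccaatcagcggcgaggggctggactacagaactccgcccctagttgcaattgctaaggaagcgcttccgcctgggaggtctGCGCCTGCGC
Mrps24, chr11:5707702-5707801, minus strand: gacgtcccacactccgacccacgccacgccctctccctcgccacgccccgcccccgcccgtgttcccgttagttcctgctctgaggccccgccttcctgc
Mrpl46 to Mrps11, chr7:78783090-78783130, minus strand: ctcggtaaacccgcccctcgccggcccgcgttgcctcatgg
Mrpl32 to Psma2, chr13:14613038-14613241, minus strand: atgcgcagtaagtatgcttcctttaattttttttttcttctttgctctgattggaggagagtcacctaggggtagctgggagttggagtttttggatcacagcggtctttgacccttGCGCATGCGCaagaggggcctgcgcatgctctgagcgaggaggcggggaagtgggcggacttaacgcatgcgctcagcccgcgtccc

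Most mitochondrial ribosomal protein messages did not pass the test between the ezrin libraries and IgG. Of the 78 members, 14 were higher, 2 were lower and 62 were not called, at an adjusted p of 0.05 from the quasi-likelihood test of edgeR, adjusted by Benjamini and Hochberg over all 12478 tested genes. Over all tested genes, 19.0% were called higher and 17.4% lower. The members' 17.9% higher is close to that background, and their 2.56% lower is below it. The median log2 fold of the members was 0.21, with the middle 50% of members between −0.04 and 0.52, beside a median of −0.02 over all tested genes with a middle range of −0.57 to 0.55. The fold was above 0 for 54 of 78 members (69.2%) and for 49.1% of all tested genes. The background differed with level when genes were divided at the members' median mean CPM of 38.4. Above it, 17.9% of members and 30.3% of all genes were higher, and 66.7% and 58.5% had a fold above 0. At or below it, 17.9% of members and 11.2% of all genes were higher, and 71.8% and 42.6% had a fold above 0. No set test was made, so these shares describe the family and do not show that it stands apart.

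Both ezrin libraries lay above IgG for 45 members and both below it for 12, while the remaining 21 had IgG between the ezrin libraries. Among all tested genes, 42.6% had both ezrin libraries above IgG and 44.3% had both below. Over the members, the median log2 ratio to IgG (1 CPM added to both sides) was 0.31 for the first ezrin library and 0.13 for the second. Replicate 1 exceeded replicate 2 in CPM for 56 of the 78 members, and for 6217 of all 12478 tested genes. The medians of the ezrin libraries lay farther from each other than that of ezrin replicate 2 lay from IgG.

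The direction of the family's summed level depended on what it was measured against. The 78 messages held 0.410% of all counts in ezrin replicate 1 (95% Clopper-Pearson interval 0.407 to 0.413), 0.377% in ezrin replicate 2 (0.374 to 0.380) and 0.303% in IgG (0.299 to 0.306). As a share of protein-coding counts they held 0.422% (0.419 to 0.425) and 0.387% (0.384 to 0.390) in the ezrin libraries and 0.409% (0.404 to 0.413) in IgG. On the first measure both ezrin libraries were above IgG, and on the second IgG lay between them. These intervals cover counting error only. With only protein-coding genes in the fit, scaled by their summed counts, 6 members were higher and 8 lower, and the median was −0.07 beside −0.24 for all genes in that fit, of which 12.6% were higher and 27.4% lower. Both antibodies were used on the same untreated cells, so these shares describe the RNA recovered with each and not expression in the cells.

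**Figure D1:**
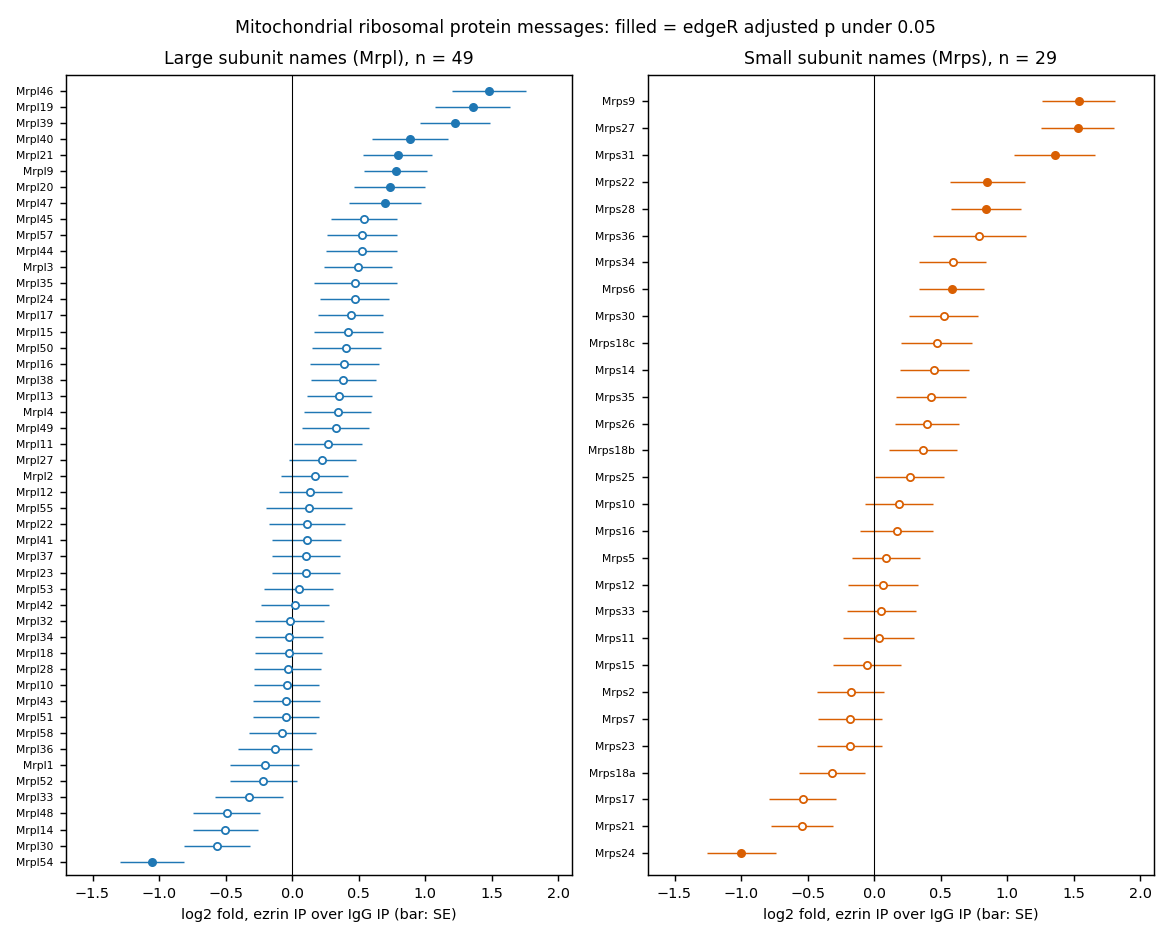
Log2 fold of ezrin IP over IgG IP for each mitochondrial ribosomal protein gene, large subunit names on the left and small on the right, ranked by fold with the highest at the top; bars are 1 SE from the edgeR fit and filled points have an edgeR adjusted p under 0.05. In both panels most points lie near 0, with medians of 0.17 and 0.27, and 1 filled point in each panel lies below 0.

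The large and small subunits were close in their counts of calls. Of 49 large subunit names, 8 were higher (16.3%), 1 was lower and 40 were not called, and the median log2 fold was 0.17. Of 29 small subunit names, 6 were higher (20.7%), 1 was lower and 22 were not called, and the median was 0.27. The median of the large subunit minus that of the small was −0.10 in the fit, and it changed sign when the trend of fold on gene length was subtracted (0.06) and with RPKM (0.04). In the ezrin libraries the medians of the single-library log2 ratios were 0.27 and 0.12 for the large subunit and 0.31 and 0.20 for the small.

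Summed over the genes, large subunit messages outnumbered small subunit messages by about the same factor in every library. The large subunit had 51131, 39402 and 19419 counts and the small subunit 29498, 21726 and 11230 counts in ezrin replicate 1, ezrin replicate 2 and IgG. The ratio of large to small was 1.73 and 1.81 in the ezrin libraries and 1.73 in IgG. On the log2 scale the ezrin mean exceeded IgG by 0.04, which is less than the SD of 0.05 between the ezrin libraries (n = 2). With 2 libraries against 1, an exact permutation test could not give a two-sided p below 0.333, and none is reported.

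Names and particles do not match for a few members. Mrps30 and Mrps18a sit in the large particle of the mammalian ribosome, and the product of Mrps36 is now known as a component of a dehydrogenase complex of the citric acid cycle. Mrps30 had 46.0 and 45.0 CPM in the ezrin libraries and 31.7 CPM in IgG, a log2 fold of 0.52 that did not pass (SE 0.26, edgeR adjusted p = 0.1). Mrps36 had 11.3 and 7.87 CPM against 5.54 CPM in IgG and was also not called (log2 fold 0.79, edgeR adjusted p = 0.0624). Assigned by particle, 8 of 51 large and 6 of 26 small subunit genes were higher and 1 of each was lower. Over all tested genes, 19.0% were higher and 17.4% lower.

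The 3 paralogs of bacterial S18 differ in place and ran in different directions without any being called. Mrps18c, the closest in role to the bacterial protein, had 23.8 and 33.9 CPM in the ezrin libraries and 20.8 CPM in IgG (log2 fold 0.47). Mrps18b, also of the small subunit, had 51.0 and 50.6 CPM against 39.4 CPM in IgG (0.37). Mrps18a, of the large particle, had 39.8 and 31.7 CPM against 44.6 CPM in IgG (−0.32). Both ezrin libraries were above IgG for the first pair and below it for Mrps18a, and the difference between the paralogs was not tested.

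The highest log2 folds of the family were those of Mrps9 and Mrps27. Mrps9, whose product belongs to the head of the small subunit and has a bacterial counterpart, had 71.2 and 68.3 CPM in the ezrin libraries and 24.0 CPM in IgG. Mrps27, a pentatricopeptide repeat protein specific to mitochondria, had 57.0 and 65.6 CPM in the ezrin libraries against 21.2 CPM in IgG. Mrps31, a mitochondria-specific protein of the head, had 18.6 and 21.5 CPM in the ezrin libraries and 7.84 CPM in IgG. For all 3 genes the ezrin libraries differed by far less than either did from IgG. Their log2 folds were 1.54 (SE 0.27, edgeR adjusted p = 3.78e-07) for Mrps9, 1.53 (SE 0.28, edgeR adjusted p = 5.58e-07) for Mrps27 and 1.36 (SE 0.30, edgeR adjusted p = 6.98e-05) for Mrps31.

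Large subunit messages with folds of that size were Mrpl46, Mrpl19 and Mrpl39. Mrpl46, a protein of the central protuberance, had 39.0 and 52.1 CPM in the ezrin libraries and 16.3 CPM in IgG. Mrpl19, which has a bacterial counterpart, had 37.1 and 32.4 CPM in the ezrin libraries against 13.6 CPM in IgG. Mrpl39, a mitochondria-specific protein, had 75.4 and 78.8 CPM in the ezrin libraries and 33.0 CPM in IgG. Again every ezrin value was more than 2 times the IgG value. The log2 folds were 1.48 (SE 0.28, edgeR adjusted p = 1.73e-06) for Mrpl46, 1.36 (SE 0.28, edgeR adjusted p = 1.7e-05) for Mrpl19 and 1.22 (SE 0.26, edgeR adjusted p = 3.67e-05) for Mrpl39. These 6 genes were called higher under all 8 alternative fits as well. The annotated span of Mrpl19 overlaps that of Gcfc2, and without knowledge of how strand was counted the reads of the 2 genes cannot be told apart there. The spans of Mrps9 and Mrps27 overlap a small nucleolar RNA gene and a long noncoding RNA gene, respectively.

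**Figure D2:**
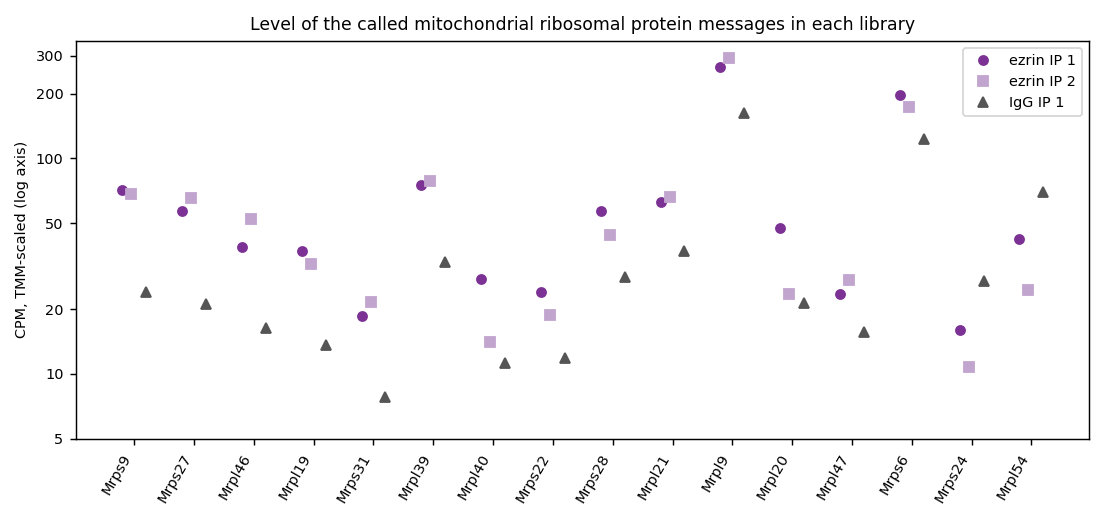
TMM-scaled CPM (log axis) of the 16 called members in ezrin replicate 1 (circle), ezrin replicate 2 (square) and IgG (triangle), ordered by log2 fold. Both ezrin points lie above the IgG point for the 14 genes on the left and below it for Mrps24 and Mrpl54 on the right, and the ezrin points of Mrpl20 and Mrpl40 lie far from each other.

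The other 8 higher members had log2 folds between 0.58 and 0.88. None of the 8 was called with protein-coding scaling, a fit that called 12.6% of all genes higher. DESeq2 did not call Mrps22 (adjusted p = 0.106), Mrpl47 (adjusted p = 0.16), Mrps6 (adjusted p = 0.0539), Mrpl40 or Mrpl20. Cyclic loess did not call Mrpl9, Mrpl47, Mrps6, Mrpl40 or Mrpl20. Mrps22, a mitochondria-specific small subunit protein, had 24.1 and 18.8 CPM in the ezrin libraries and 11.9 CPM in IgG (log2 fold 0.85, edgeR adjusted p = 0.0105). Mrps28, the counterpart of bacterial S1, had 57.0 and 43.9 CPM against 28.2 CPM in IgG (0.84, edgeR adjusted p = 0.00633). Ezrin replicate 1 was the highest library for both. Mrpl9, the most abundant member in CPM, had 266 and 293 CPM in the ezrin libraries and 163 CPM in IgG (0.78, edgeR adjusted p = 0.00518). Mrpl47, of the ring around the exit tunnel, had 23.5 and 27.4 CPM against 15.7 CPM in IgG (0.70, edgeR adjusted p = 0.033). In these the second ezrin library was the higher one.

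For Mrpl40 and Mrpl20 the call rested on 1 library. Mrpl40, a central protuberance protein, had 27.6 and 14.0 CPM in the ezrin libraries and 11.3 CPM in IgG (log2 fold 0.88, edgeR adjusted p = 0.008). Mrpl20, which has a bacterial counterpart, had 47.5 and 23.5 CPM in the ezrin libraries and 21.4 CPM in IgG (0.73, edgeR adjusted p = 0.02). Ezrin replicate 2 was close to IgG for both, with log2 ratios of 0.29 and 0.13, while those of ezrin replicate 1 were 1.22 and 1.11. Their ezrin libraries differed 1.97-fold and 2.02-fold, the widest gaps of the family, whose median gap was 1.15-fold. The spread used by edgeR was pooled over genes, so such a gap did not widen the error of its own gene, and DESeq2 called neither (adjusted p = 0.166 and 0.202).

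Mrpl21 and Mrps6 share their ground with other genes. Mrpl21 had 62.9 and 66.5 CPM in the ezrin libraries and 37.3 CPM in IgG (log2 fold 0.79, edgeR adjusted p = 0.00883). Its span overlaps Ighmbp2, a helicase gene on the opposite strand, which was also higher (1.07, edgeR adjusted p = 0.000748). Mrps6, the counterpart of bacterial S6, had 197 and 173 CPM in the ezrin libraries and 124 CPM in IgG (0.58, edgeR adjusted p = 0.0455). Slc5a3, a myo-inositol transporter gene, overlaps the span of Mrps6 and went the other way, with 102 and 137 CPM against 178 CPM in IgG (−0.58, edgeR adjusted p = 0.0385). In all, 25 members overlap another annotated gene, and for 20 of them it includes a protein-coding gene. Without those 20 genes, 6 of 35 large and 5 of 23 small subunit genes were higher and 1 of each was lower. Over all tested genes, 19.0% were higher and 17.4% lower.

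Mrpl54 and Mrps24 were lower in the ezrin libraries. Mrpl54, a mitochondria-specific protein near the stalk of the large subunit, had 42.4 and 24.6 CPM in the ezrin libraries and 69.6 CPM in IgG. Mrps24, the counterpart of bacterial S3 at the messenger RNA entrance, had 16.0 and 10.8 CPM in the ezrin libraries and 26.9 CPM in IgG. Both ezrin libraries were below IgG for each gene, replicate 2 more so. The log2 fold was −1.05 (SE 0.24, edgeR adjusted p = 0.000123) for Mrpl54 and −0.999 (SE 0.26, edgeR adjusted p = 0.000755) for Mrps24. DESeq2 did not call Mrps24 (adjusted p = 0.0594), and with RPKM neither gene was called.

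**Figure D3:**
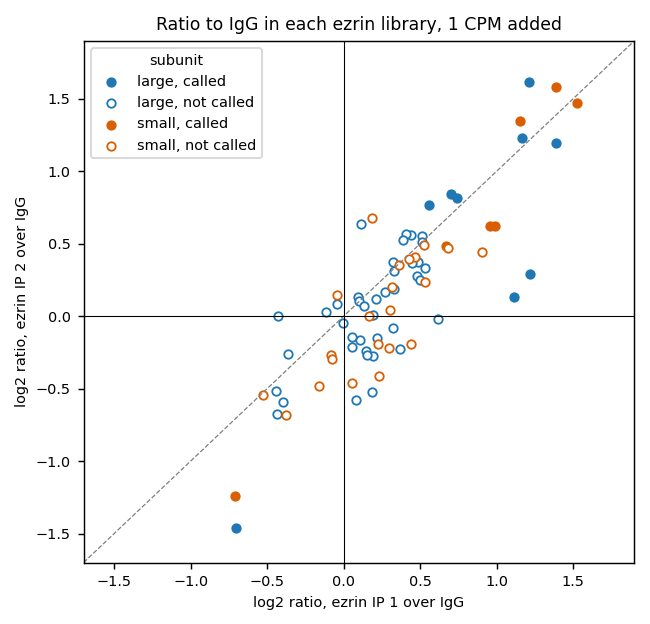
Log2 ratio to IgG of each of the 78 members in ezrin replicate 1 (horizontal) and ezrin replicate 2 (vertical), with 1 CPM added to both sides; filled points were called and the dashed line marks equal ratios. Most points lie below the line, as replicate 1 exceeded replicate 2 for 56 members, and 21 members have IgG between the ezrin libraries.

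Neighbours within the ribosome had unlike folds, without a test of the differences. The structural groups in this paragraph were put together with the values known and are given as values only. Around the exit tunnel, where the new chain leaves towards the inner membrane, Mrpl45, which helps to anchor the ribosome there, had 75.2 and 77.3 CPM in the ezrin libraries and 52.5 CPM in IgG (log2 fold 0.54). Mrpl17, Mrpl22, Mrpl23 and Mrpl24 of the same region had log2 folds of 0.44, 0.11, 0.10 and 0.47. None of these 5 was called, whereas Mrpl47 of the same region, described above, was called higher (0.70). At the stalk, which recruits translation factors, Mrpl10 and Mrpl11 had log2 folds of −0.04 and 0.27 and Mrpl53 had 0.05, far from Mrpl54 beside them. Mrpl12, the stalk protein that was also found on the mitochondrial RNA polymerase, had 158 and 120 CPM in the ezrin libraries and 126 CPM in IgG, which lay between them (0.14). In the central protuberance, Mrpl38 had 140 and 117 CPM in the ezrin libraries and 98.3 CPM in IgG (0.38), and Mrpl48 had 24.1 and 22.8 CPM against 33.0 CPM in IgG (−0.49). Neither was called, beside the higher Mrpl40 and Mrpl46.

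Subunits with and without a bacterial counterpart overlapped widely in fold. The 46 members with a counterpart had a median log2 fold of 0.15, with 8 higher and 1 lower. The 31 mitochondria-specific members had a median of 0.37, with 6 higher and 1 lower. The higher calls were 17.4% of the first class and 19.4% of the second, and the lower calls 2.17% and 3.23%. Over all tested genes, 19.0% were higher and 17.4% lower. In the single libraries the medians were 0.28 and 0.02 for the first class and 0.33 and 0.25 for the second, so the classes lay closer together in ezrin replicate 1. Among the 10 mitochondria-specific members of the small particle, 9 had a fold above 0 and 3 were called higher. Over all tested genes these shares were 49.1% and 19.0%. Mrps23, with 75.1 and 64.2 CPM in the ezrin libraries and 79.2 CPM in IgG (−0.19), was the exception to that direction and was not called.

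Levels per gene length put other members on top. By the authors' RPKM, Mrps21, a small protein with a bacterial counterpart, was the most abundant member, at 117 and 119 RPKM in the ezrin libraries and 131 RPKM in IgG. Its log2 fold in the count fit was −0.54 (103 and 102 CPM against 149 CPM in IgG, edgeR adjusted p = 0.0556), and it was called lower at a mean of at least 10 CPM (edgeR adjusted p = 0.0117), after cyclic loess (limma adjusted p = 0.0173) and with protein-coding scaling (edgeR adjusted p = 0.00193). Mrps6 was next in the ezrin libraries, at 108 and 97.3 RPKM, but at 52.3 RPKM in IgG it stood below Mrpl54 and Mrpl12 there. Mrps26, a mitochondria-specific protein, ranked among the 3 most abundant small subunit genes in CPM, at 124 and 100.4 CPM in the ezrin libraries and 85.2 CPM in IgG, and was not called (0.40). Mrpl42, at 27.1 and 29.8 CPM in the ezrin libraries and 28.0 CPM in IgG, had the lowest fold above 0 in the family and was not called (0.02).

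The lengths implied by count and RPKM were short in this family, with a median of 2394 bases and a range of 607 to 8631 bases, beside a median of 4352.5 bases over all tested genes. The 39 members above their own median length had a median log2 fold of 0.35, with 7 higher and 0 lower. The 39 at or below it had a median of 0.11, with 7 higher and 2 lower. All tested genes divided at the same length had medians of −0.03 when longer and 0.03 when shorter. Of the longer genes 19.7% were higher and 17.7% lower, and of the shorter genes 16.5% and 16.3%. With the trend of fold on gene length subtracted, the members' medians were 0.38 when longer and 0.32 when shorter. At a mean of at least 10 CPM the median of the shorter members fell to about 0, as listed with the other settings below.

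Start regions of several members face another gene. RefSeq windows of 250 bases before to 50 bases after the start were found for 69 of the 78 members; those without one were Mrpl4, Mrpl13, Mrpl15, Mrpl19, Mrpl38, Mrpl54, Mrps28, Mrps34 and Mrps35. Of the 69, 21 (30.4%) had the start of a protein-coding gene on the opposite strand within 500 bases upstream, against 12.7% of 9133 tested protein-coding genes. The members with such a neighbour had a median log2 fold of 0.17 and those without one 0.13. No test was made of either difference.

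Some genes that share a start region had unlike folds. Mrpl46 and Mrps11 start 42 bases apart in opposite directions, on the stretch printed above, and Mrps11 had 21.9 and 16.2 CPM in the ezrin libraries and 18.6 CPM in IgG (log2 fold 0.03, edgeR adjusted p = 0.935), against 1.48 for Mrpl46. Mrpl32 starts 205 bases from Psma2, and Mrpl32 had 26.2 and 18.7 CPM in the ezrin libraries and 22.8 CPM in IgG (−0.02), whereas Psma2 had 121 and 149 CPM against 51.2 CPM in IgG (1.40, edgeR adjusted p = 1.19e-06). Mrps12, a decoding site protein, starts 147 bases from Sars2, the mitochondrial seryl-tRNA synthetase gene. Mrps12 had 26.2 and 17.9 CPM in the ezrin libraries and 21.1 CPM in IgG (0.07), while Sars2 had 34.1 and 20.9 CPM against 12.8 CPM in IgG (1.11, edgeR adjusted p = 0.000531). These pairs were picked with values known, and others had like folds. Mrpl57 and Ska3 had log2 folds of 0.52 and 0.43, Mrps18c and Helq 0.47 and 0.38, and Mrpl21 and Ighmbp2 were both higher. The difference between the genes of a pair was not tested.

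The NRF1 motif, searched on both strands, was present in the windows of 13 of 69 members (18.8%) and of 12.2% of tested protein-coding genes. It was found in those of Mrps9, Mrpl39 and Mrpl9, which were higher, and also in those of Mrpl30 and Mrps21, which were not called and had both ezrin libraries below IgG. The ETS motif CCGGAAGT was present for 12 members (17.4%) and 9.7% of genes, and the YY1 motif, AAGATGG followed by CGG, for 5 members (7.25%) and 2.56% of genes. Members with the NRF1 motif had a median log2 fold of 0.44 and the 56 without it 0.11. Of these, 3 of 13 and 9 of 56 were called higher, beside 19.0% of all tested genes. The other motifs ran the other way, with medians of 0.10 with and 0.14 without ETS, and 0.11 with and 0.15 without YY1. None of these differences was tested. A match describes these letters in a window and says nothing about binding in these cells.

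Of the 5 proteins of the mitochondrial ribosome with other names, 1 was higher. Ptcd3, a pentatricopeptide repeat protein at the messenger RNA entrance, had 69.0 and 81.6 CPM in the ezrin libraries and 39.5 CPM in IgG and was higher (log2 fold 0.93, SE 0.26, edgeR adjusted p = 0.00178). Dap3, a GTP-binding protein of the head, had 136 and 125 CPM against 119 CPM in IgG and was not called (0.13). Gadd45gip1, of the large particle, had 71.3 and 62.2 CPM against 59.3 CPM in IgG and was not called (0.17). With Chchd1 and Aurkaip1, also not called, the median of the 5 was 0.17.

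Messages of factors that build or run the mitochondrial ribosome included a larger share of higher calls than those of its subunits, a difference that was not tested. Of 27 tested genes for assembly and ribosomal RNA modification, 11 were higher (40.7%) and 0 lower, beside 19.0% and 17.4% of all tested genes. Their median log2 fold was 0.56, and Trmt61b was too rare to test. Ngrn, an assembly factor of the large subunit RNA, had 59.7 and 54.3 CPM in the ezrin libraries and 16.3 CPM in IgG (1.80, edgeR adjusted p = 5.88e-09). Mettl17 had 13.0 and 11.7 CPM against 4.08 CPM in IgG (1.60), and the methyltransferase Tfb1m had 14.3 and 15.4 CPM against 5.54 CPM (1.42). The helicase Dhx30, the most abundant of the list, had 132 and 122 CPM in the ezrin libraries and 70.2 CPM in IgG (0.86, edgeR adjusted p = 0.00306). Ndufab1, the mitochondrial acyl carrier protein, had 83.1 and 55.7 CPM against 47.0 CPM in IgG and was not called (0.56). Mettl15, a methyltransferase of the small subunit RNA, was higher at a low level, with 3.64 and 3.82 CPM in the ezrin libraries and 1.15 CPM in IgG (1.69). DESeq2 called 6 of this list higher and protein-coding scaling also 6, beside 14.0% and 12.6% of all genes in those fits.

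Of 18 tested mitochondrial translation factors, 7 were higher (38.9%) and 2 lower (11.1%), with a median of 0.54. Over all tested genes the shares were 19.0% and 17.4%. The elongation factor Gfm1 had 251 and 241 CPM in the ezrin libraries and 80.4 CPM in IgG (log2 fold 1.61, SE 0.25, edgeR adjusted p = 7.99e-09). Lrpprc, a pentatricopeptide repeat protein that stabilizes mitochondrial messages, had 88.9 and 95.9 CPM in the ezrin libraries and 34.1 CPM in IgG (1.44, edgeR adjusted p = 9.15e-07). The elongation factor Tufm had 147 and 130 CPM against 79.6 CPM in IgG (0.79), and its exchange factor Tsfm had 85.7 and 71.8 CPM against 38.5 CPM (1.03). Pdf, the deformylase that trims the first residue of new chains, was lower, with 12.7 and 9.18 CPM in the ezrin libraries and 23.9 CPM in IgG (−1.13, edgeR adjusted p = 0.000205). Cyclic loess left 4 of the list higher and protein-coding scaling 3, in fits that called 13.1% and 12.6% of all genes higher. Of 11 genes for mitochondrial transcription and DNA upkeep, 4 were higher (36.4%) and 0 lower, with a median of 0.51. DESeq2 called 1 of the 11 higher, beside 14.0% of all genes. Mterf1a led them at 5.83 and 7.39 CPM in the ezrin libraries and 1.36 CPM in IgG (2.27, edgeR adjusted p = 3.45e-05), whereas Polg, the mitochondrial DNA polymerase, was not called (0.28).

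**Figure D4:**
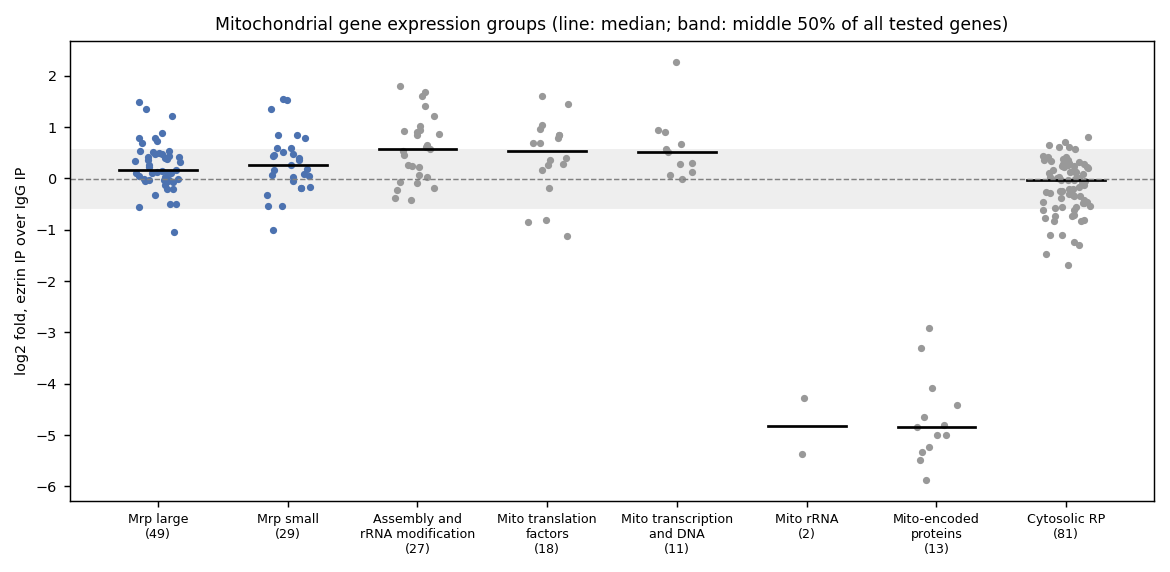
Log2 fold of ezrin IP over IgG IP for each tested gene of the groups named on the horizontal axis, with the number of genes in brackets; short lines are group medians, the dashed line is the median of all tested genes and the band its middle 50%. The subunit messages lie largely inside the band, while RNA encoded by mitochondrial DNA lies below −2.

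The RNAs of the same ribosome were far lower in the ezrin libraries. The large subunit RNA mt-Rnr2 had 13.1 and 17.9 CPM in the ezrin libraries and 635 CPM in IgG (log2 fold −5.36, SE 0.24, edgeR adjusted p = 1.54e-102). The small subunit RNA mt-Rnr1 had 4.14 and 6.68 CPM in the ezrin libraries and 105 CPM in IgG (−4.29, SE 0.26, edgeR adjusted p = 4.08e-59). Both ezrin libraries were more than 10 times below IgG for each. All 13 tested protein-coding genes of mitochondrial DNA, which the ribosome translates, were lower, with a median of −4.84. No nuclear member of the family came near that range, the lowest being Mrpl54 at −1.05.

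Of 81 tested cytosolic ribosomal proteins, the nearest family by function, 6 were higher (7.41%) and 16 lower (19.8%). Over all tested genes the shares were 19.0% and 17.4%. The cytosolic family had a median log2 fold of −0.03. With RPKM 15 of its genes were higher and 4 lower, in a fit that called 29.9% of all genes higher and 7.73% lower. In the single libraries the median was 0.01 and −0.14, against 0.31 and 0.13 for the mitochondrial family. Cyclic loess, which removes a trend with abundance, gave the cytosolic family a median of −0.44, with 0 higher and 28 lower, and the mitochondrial family a median of 0.17, with 9 higher and 3 lower, in a fit that called 13.1% of all genes higher and 15.5% lower. The median over the tested genes of the mean CPM was 38.4 in the mitochondrial and 303 in the cytosolic family, and the difference between the families was not tested.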

How the data were processed

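The deposited tables hold, for 3 libraries, unnormalized counts by gene symbol and the authors' RPKM (counts scaled to gene length and library size). Per the submitters' processing notes the build was GRCm38. Aligner, counter, annotation and strand use were not given in the sources used here. The labels name polyA RNA but their protocol describes depletion of ribosomal RNA. Members, lists and the rule for named genes were chosen with earlier results of these data known.

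Counts were tested with edgeR 4.0.16 (R 4.3.3) by the quasi-likelihood test, with TMM scaling (factors 1.02, 1.04 and 0.946), filterByExpr by group and Benjamini-Hochberg adjustment over 12478 genes. With 1 residual degree of freedom the fit has an infinite prior, so the spread is pooled over genes, the lone IgG library is assumed to vary like the ezrin ones, and p-values measure only the spread between these libraries, which may be technical. SE is the size of the log2 fold over the square root of F. Lengths are count over RPKM, scaled on small RNA genes of known length. Alternatives used DESeq2 1.42.0 and limma 3.58.1, the latter on counts after cyclic loess and on log2 of the authors' RPKM with 1 added. RefSeq tables of GRCm38.p6 gave spans, biotypes and start windows for all 78 and 69 members. The members named are the called ones, the 3 most abundant and the extremes of each subunit, the S18 paralogs and members whose name and particle differ; members named for position, start regions or motifs were added with values known. The planned protein sequences were not used here.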

Additional observations from a re-analysis of the deposited data

How the results depend on the processing

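No paired analysis was possible because IgG has 1 library, so the groups share only 1 replicate number. Protein-coding scaling, assignment by particle and leaving out overlapping genes were chosen after seeing the data. The cause of the changes below was not tested. The single IgG library limits every contrast, and with 1 ezrin library left out the values have no test.
For the large subunit, the higher count of 8 became 12 by library size only, 4 after cyclic loess and 5 with DESeq2. That count was 21 with RPKM and 3 with protein-coding scaling. The share of all genes called higher also differed between these fits. It was 19.0% in the main fit and larger by library size only. It was 13.1% after cyclic loess, 14% with DESeq2, 29.9% with RPKM and 12.6% with protein-coding scaling. Its lower count of 1 became 3 at a mean of at least 10 CPM, 0 with RPKM and 4 with protein-coding scaling. The share of all genes called lower was 17.4% in the main fit and larger at 10 CPM. It was 7.73% with RPKM and 27.4% with protein-coding scaling. Its median was 0.29 by library size only, 0.26 with no filter, 0.089 at 10 CPM, 0.54 with RPKM, 0.35 after the length trend and −0.10 with protein-coding scaling. Leaving out 1 ezrin library gave 0.12 to 0.27.
For the small subunit, the higher count of 6 became 9 by library size, 8 with no filter and 4 with DESeq2. That count was 13 with RPKM and 3 with protein-coding scaling. The all-gene shares given for the large subunit apply to the same settings here. With no filter, 15.0% of all genes were called higher. After loess 15.5% of all genes were called lower, and with DESeq2 8.82%. The small subunit's lower count of 1 became 2 after loess, 3 at 10 CPM, 0 with DESeq2, 0 with RPKM and 4 with protein-coding scaling. Its median was 0.39 by library size, 0.36 with no filter, 0.12 at 10 CPM, 0.50 with RPKM, −0.0048 with protein-coding scaling and 0.40 without overlapping genes, and 0.20 to 0.31 with 1 ezrin library left out. The large minus small difference was −0.066 after loess, −0.028 at 10 CPM, 0.041 with RPKM, 0.056 after the length trend and −0.082 to −0.040 with 1 ezrin library left out.
The median of members with a bacterial counterpart was 0.27 by library size, 0.25 with no filter, 0.060 at 10 CPM, 0.44 with RPKM, 0.29 after the length trend and −0.12 with protein-coding scaling. It was 0.024 without ezrin replicate 1 and 0.28 without ezrin replicate 2. That of mitochondria-specific members was 0.49 by library size, 0.23 after loess, 0.46 with no filter, 0.26 at 10 CPM, 0.68 with RPKM, 0.094 with protein-coding scaling and 0.25 to 0.33 with 1 ezrin library left out. Longer members had 0.21 after loess, 0.59 with RPKM and 0.081 with protein-coding scaling. Shorter members had 0.23 by library size, 0.21 with no filter, −3.77e-05 at 10 CPM, 0.45 with RPKM, 0.32 after the length trend, −0.16 with protein-coding scaling and 0.11 to 0.21 with 1 ezrin library left out.
The ribosomal proteins with other names had a median of 0.29 by library size, 0.060 after loess, 0.27 with no filter, 0.063 at 10 CPM, 0.50 with RPKM and −0.10 with protein-coding scaling. It was 0.066 without ezrin replicate 1 and 0.26 without ezrin replicate 2. Assembly genes numbered 15 higher by library size, 14 with no filter, 7 at 10 CPM and 6 with DESeq2. They numbered 17 higher with RPKM and 6 with protein-coding scaling. Their medians were 0.74 with RPKM, 0.29 with protein-coding scaling and 0.41 to 0.58 with 1 ezrin library left out. Translation factors numbered 4 higher after loess and 3 with protein-coding scaling, and 1 lower with DESeq2 and 0 with RPKM. Their median was 0.66 by library size, 0.50 after loess, 0.64 with no filter, 0.29 at 10 CPM, 0.63 with RPKM, 0.61 after the length trend, 0.27 with protein-coding scaling and 0.52 to 0.54 with 1 ezrin library left out. Transcription and DNA genes numbered 2 higher after loess and 1 at 10 CPM, with DESeq2 and with protein-coding scaling. Their median was 0.63 by library size, 0.18 at 10 CPM, 0.23 with protein-coding scaling and 0.35 to 0.52 with 1 ezrin library left out.
Mitochondrially encoded proteins had a median of −4.19 with RPKM and −4.90 to −4.35 with 1 ezrin library left out. Cytosolic ribosomal proteins numbered 0 higher after loess, 3 at 10 CPM, 15 with RPKM and 1 with protein-coding scaling, and 28 lower after loess, 10 with DESeq2, 4 with RPKM and 33 with protein-coding scaling. Their median was 0.088 by library size, −0.44 after loess, 0.35 with RPKM, −0.30 with protein-coding scaling and −0.14 to 0.0091 with 1 ezrin library left out. Over all genes, 3734 were higher with RPKM and 1422 with protein-coding scaling, and 1101 were lower with DESeq2 and 964 with RPKM. The median of all genes was 0.10 by library size, 0.22 with RPKM and −0.24 with protein-coding scaling.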
